A study of Mus musculus with 24 samples.

Results

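Interferon regulatory factors are transcription factors that switch on interferon genes and the genes that interferons induce. The rows described here are those of Irf1, Irf2, Irf4, Irf5, Irf7, Irf8 and Irf9, chosen by name as the members of this family other than Irf3. These 7 genes were among 12767 in the table, and all 7 had a mean of at least 10 normalised counts and entered the tests. The cells were CD11c+ dendritic cells taken with magnetic beads from the mesenteric lymph node, which drains the gut, of mice with MC38 colon tumours under the skin.

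All mice were C57BL/6 females, 6 to 8 weeks old, and all carried MC38 tumours started from 1000000 cells. The genotypes were knockout of Myd88 and wild type (WT). In each genotype mice were given anti-PD-1 antibody together with LGG (the combination), LGG alone, anti-PD-1 alone or IgG control antibody, with 3 libraries in each of these 8 groups. LGG is Lactobacillus rhamnosus GG, a live gut bacterium given by mouth, and anti-PD-1 blocks an inhibitory receptor of T cells. Antibody was injected at 200 ug per mouse, LGG and antibody were each given 2 times a week for 2 to 3 weeks, and treatment started when tumours reached about 100 mm3, 7 to 10 days after tumour injection. No antibody is recorded for mice given LGG by itself, which makes the presence of control IgG a further difference between LGG and IgG groups. They do not describe how the knockout was made, nor whether the 3 libraries of a group came from separate animals. The p-values therefore measure only the spread between these libraries, which may be technical.

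The family shares a DNA-binding domain that reads GAAA repeats, the core of the interferon-stimulated response element. Irf8 and Irf4 direct dendritic cell fate: Irf8 is needed for type 1 conventional dendritic cells (cDC1) and is high in plasmacytoid dendritic cells (pDC), while Irf4 serves type 2 conventional cells (cDC2) and migration to lymph nodes. Irf5 and Irf7 bind the adaptor Myd88 below Toll-like receptors and drive inflammatory cytokine and type I interferon genes. Irf9 works with Stat2 in the complex ISGF3 that answers type I interferon, and Irf7 is itself one of its targets. Irf1 is an activator induced by interferon gamma, and Irf2 is best known as its antagonist at shared sites.

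Sequence around the transcription start was examined for all 7 members. RefSeq windows on build GRCm38.p6, 250 bases before to 50 bases after a start, were found for 7 of 7 genes, 10 windows in all. Each was searched on both strands for GAAANNGAAA (ISRE, the site of the family), TTCNNNGAA (GAS, the site of Stat dimers), GGAANNGAAA (EICE, the site of PU.1 with Irf4 or Irf8) and the NF-kB consensus. Of 32851 such windows of all genes, 3.44% held the ISRE letters, 8.3% the GAS letters, 2.72% the EICE letters and 8.46% the NF-kB consensus. The 4 windows below are all those that held a match, in Irf8, Irf1 and Irf2, and the window of Irf7. Irf8 and Irf7 had the largest log2 changes with LGG in WT mice, and Irf2 moved down. The windows of Irf4, Irf5 and Irf9 are not printed. Capitals mark ISRE and GAS matches.
Irf8, chr8:120736108-120736407, plus strand: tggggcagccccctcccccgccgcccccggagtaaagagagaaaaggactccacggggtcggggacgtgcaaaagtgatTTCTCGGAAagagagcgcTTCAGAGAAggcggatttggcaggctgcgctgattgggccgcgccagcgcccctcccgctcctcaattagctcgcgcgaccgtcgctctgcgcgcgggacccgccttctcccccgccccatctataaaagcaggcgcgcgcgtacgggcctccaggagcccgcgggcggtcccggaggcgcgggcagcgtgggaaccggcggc
Irf7, chr7:141266375-141266674, minus strand: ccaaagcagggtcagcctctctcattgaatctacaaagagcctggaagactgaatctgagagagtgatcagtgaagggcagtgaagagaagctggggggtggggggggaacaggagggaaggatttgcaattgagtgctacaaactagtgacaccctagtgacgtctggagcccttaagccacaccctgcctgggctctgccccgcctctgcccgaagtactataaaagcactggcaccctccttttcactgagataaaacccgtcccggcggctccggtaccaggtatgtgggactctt
Irf1, chr11:53769764-53770063, plus strand: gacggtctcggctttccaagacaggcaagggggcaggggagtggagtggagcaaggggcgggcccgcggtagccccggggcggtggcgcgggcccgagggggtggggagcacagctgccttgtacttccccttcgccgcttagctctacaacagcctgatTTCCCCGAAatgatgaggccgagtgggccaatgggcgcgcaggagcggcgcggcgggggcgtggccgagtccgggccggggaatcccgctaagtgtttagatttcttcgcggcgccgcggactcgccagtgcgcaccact
Irf2, chr8:46739495-46739794, plus strand: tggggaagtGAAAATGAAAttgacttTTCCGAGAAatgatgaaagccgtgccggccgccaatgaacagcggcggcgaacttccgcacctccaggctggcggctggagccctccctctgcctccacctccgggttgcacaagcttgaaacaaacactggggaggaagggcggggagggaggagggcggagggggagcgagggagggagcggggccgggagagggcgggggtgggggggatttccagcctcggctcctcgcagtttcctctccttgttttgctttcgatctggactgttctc
The Irf8 window held a pair of GAS matches that begin 171 and 153 bases before the start. The Irf1 window held 1 GAS match, 90 bases before the start, and an NF-kB match (ggggaatccc) 13 bases before it. Only the Irf2 window among the 10 held ISRE letters, 241 bases before the start, with an EICE match overlapping it, a GAS match 224 bases before the start and an NF-kB match 17 bases before it. The Irf7 window, and the windows of Irf4, Irf5 and Irf9, held none of the 4 motifs, nor did the further windows of Irf1 and Irf8. A match describes letters only, and a window without one says nothing of the factors that bind there or elsewhere.

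On GRCm38 the genes lie apart from each other. Irf8 (ENSMUSG00000041515) spans chr8:120736358-120756694 and Irf2 (ENSMUSG00000031627) chr8:46739732-46847458, both on the plus strand. Irf4 (ENSMUSG00000021356) spans chr13:30749226-30766976, Irf5 (ENSMUSG00000029771) chr6:29526625-29541871, Irf9 (ENSMUSG00000002325) chr14:55603571-55610030 and Irf1 (ENSMUSG00000018899) chr11:53770014-53778374, all on the plus strand. Irf7 (ENSMUSG00000025498) lies on the minus strand at chr7:141262706-141266481. Apart from Irf5, described below, exons of other genes cover at most 3.4% of a member's exon length, the value for Irf1.

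Depth and cell markers set the frame for the values. Library totals over the 12767 genes lay between 24531528 and 49272593 reads. Myd88 was counted at 697.3 to 1837 normalised counts in the 12 knockout libraries and 1723 to 2232 in the 12 WT libraries. With IgG the log2 difference, knockout minus WT, was -0.58 ± 0.19 (adjusted p = 0.0185, limma). The Myd88 count also changed with LGG, by -0.62 ± 0.19 in knockout (adjusted p = 0.0157) and 0.14 ± 0.19 in WT mice (adjusted p = 0.536). These LGG effects differed by -0.76 ± 0.26 (adjusted p = 0.0312, limma). Knockout means were 1271 with IgG, 844.5 with LGG and 749.4 with the combination. Knockout anti-PD-1 replicate 3, at 1837, lay inside the WT range. Gene totals do not resolve single exons, and genotypes are given as labelled. On the first principal component, which held 64.3% of the variance, the 6 WT libraries with LGG stood apart from all others. Knockout anti-PD-1 replicates 2 and 3 and knockout LGG replicate 2 stood apart from their own groups, and values without these 3 libraries are given beside the comparisons that use them. Of 8 genes common to dendritic cells, all were counted in each group. With LGG, 4 were higher and 0 lower in knockout mice, and 3 higher and 1 lower in WT mice (adjusted p below 0.05, limma). With IgG, 1 was higher and 4 lower in knockout than in WT mice. Itgax, which encodes CD11c, averaged 45009 normalised counts in knockout LGG and 36783 in knockout IgG libraries. In WT mice Itgax averaged 9828 in LGG and 23090 in IgG libraries. Zbtb46, a factor of conventional dendritic cells, averaged 425.3 in knockout LGG, 209.9 in knockout IgG, 2234 in WT LGG and 413.9 in WT IgG libraries. The purified cells also carried transcripts of other cell types, described beside the results they move with. In such bulk samples, fewer cells of a type and less RNA per cell cannot be told apart.

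LGG in WT mice was accompanied by higher transcript levels of 5 of the 7 genes, a lower level of Irf2 and an Irf5 level that did not pass the test. A gene was called when limma's test, fitted on log2(normalised count + 1) of all 24 libraries and adjusted by Benjamini and Hochberg over 12749 genes, gave an adjusted p below 0.05. Among all genes tested, 27.4% were called higher and 28.2% lower in this comparison, so a call by itself is common here. The median log2 fold change was 1.17 over the 7 genes and 0 over all genes tested.

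Irf8 showed the clearest separation of the fate regulators. WT LGG libraries held 34740.5, 35300 and 34661.5 normalised counts, against 5139, 5237 and 5407.5 in WT IgG libraries. The groups were far apart, with a spread of 0.997% of the mean (coefficient of variation) in WT LGG and 2.58% in WT IgG. The fold was 6.63, a log2 change of 2.73 ± 0.05 (SE, adjusted p = 6.21e-19, limma). Irf4 had 10432, 10163 and 10630 counts in WT LGG, against 4510, 4692 and 4424 in WT IgG libraries. These groups did not overlap either, and the change was 1.20 ± 0.07 on the log2 scale (adjusted p = 1.84e-11, limma).

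Irf7, which amplifies type I interferon production, had the largest fold of the family. It stood at 10395, 10460 and 9212 normalised counts in WT LGG libraries, against 708.6, 736.3 and 815.6 in WT IgG libraries. The difference was 13.3-fold, a log2 change of 3.73 ± 0.17 (adjusted p = 2.94e-13, limma). The lowest WT LGG library lay far above the highest WT IgG library. Irf9, the DNA-binding part of ISGF3, had 4520, 4618.5 and 4459 counts in WT LGG, against 2263, 2101 and 2135 in WT IgG libraries. Its groups were also apart, by a log2 change of 1.07 ± 0.06 (adjusted p = 5.22e-12, limma).

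Irf1 and Irf2, the activator and its antagonist, moved in opposite directions. Irf1 had 11707, 11447.5 and 10311 normalised counts in WT LGG, against 5034, 4830 and 4990 in WT IgG libraries, a log2 change of 1.17 ± 0.09 (adjusted p = 9.94e-10, limma). Irf2 had 1791, 1740 and 1771 counts in WT LGG, against 2376, 2268.5 and 2217.5 in WT IgG libraries, a log2 change of -0.37 ± 0.12 (adjusted p = 0.0136, limma). The Irf2 groups did not overlap, although the change was the smallest of those called. Irf5 was not called: it had 13399, 13185 and 12812.5 counts in WT LGG, against 13216, 12778 and 12692.5 in WT IgG libraries. Its ranges overlapped, and the 95% interval of its log2 change ran from -0.11 to 0.16 (adjusted p = 0.753, limma). Irf5 shares 14.1% of its exon length with Tnpo3 on the opposite strand, and whether counting used strand is not given in the sources used here.

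**Figure D1:**
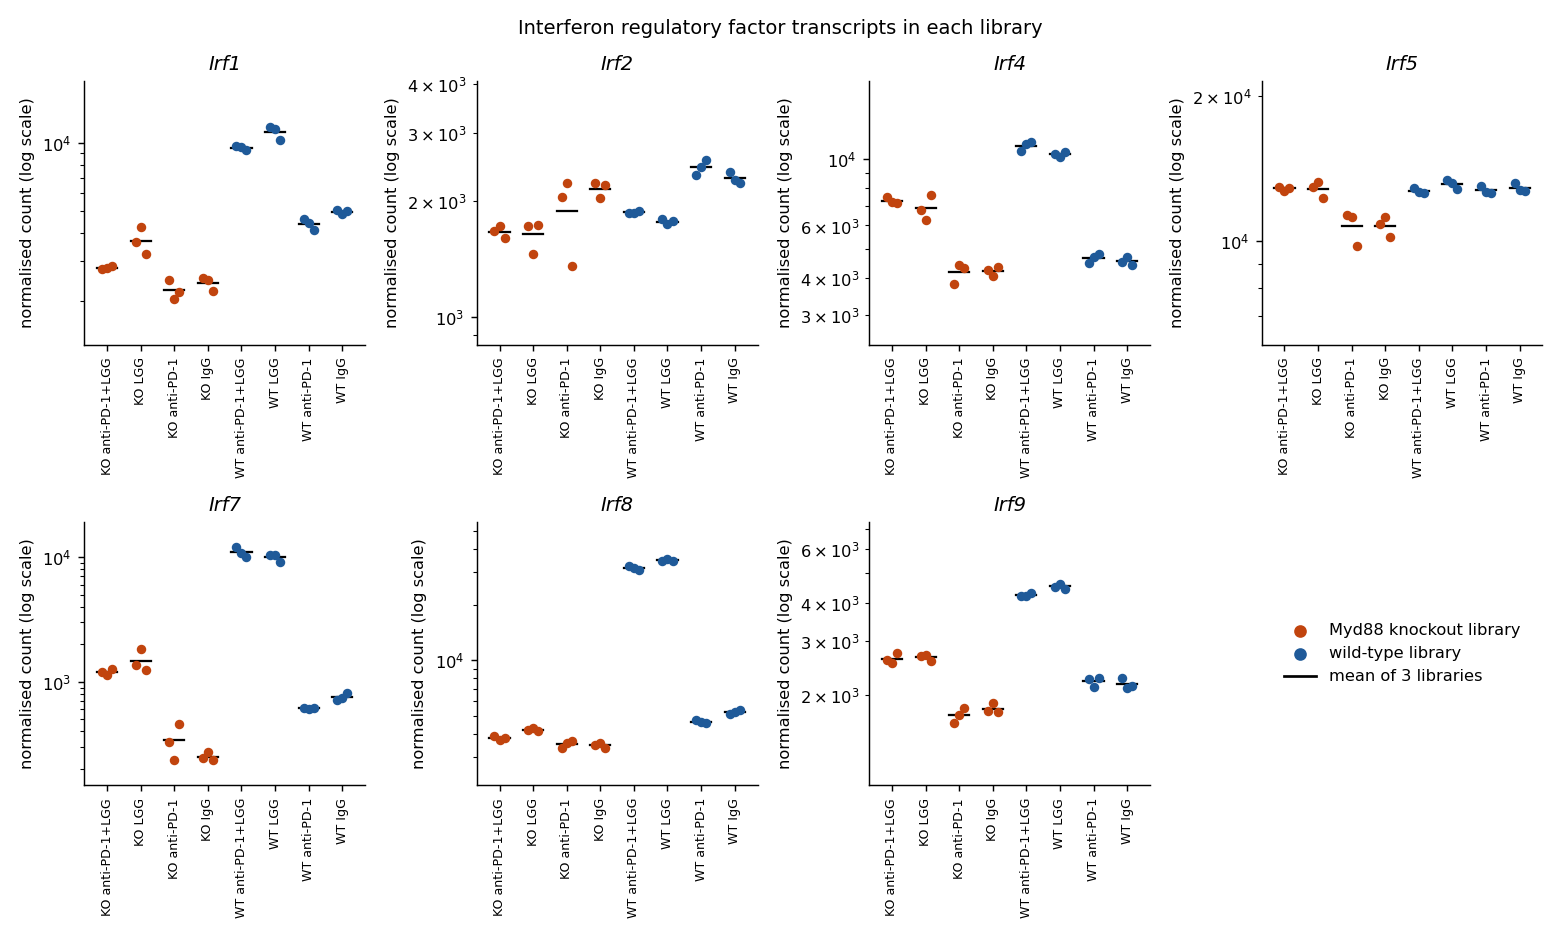
Normalised counts of each of the 7 genes (y axis, log scale) in the 8 groups (x axis); each point is 1 library and each bar the mean of 3. Irf8 sits between 31085 and 35300 in the 6 WT libraries with LGG and between 3357.5 and 5407.5 in the other 18, while Irf5 stays between 9790 and 13399 in all 24.

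Markers of cell types moved with these genes in the WT mice. The summed level of 12 cDC1 genes ranged from 30432 to 34167 in WT LGG and from 29344 to 29706 in WT IgG libraries, with 3 genes called higher and 6 lower. Within that list Xcr1, the chemokine receptor that defines cDC1, was higher by 3.62 on the log2 scale and Clec9a, their dead-cell receptor, had a log2 change of -3.12. Of 10 measured cDC2 genes 2 were higher and 7 lower, with sums of 26932 to 30041 in WT LGG and 96359 to 99907 in WT IgG libraries. The sum over 10 measured pDC genes was 29398 to 34361.5 in WT LGG against 11526 to 12774 in WT IgG libraries, with 5 higher and 1 lower. Most of that sum was Bst2, which averaged 29184 in WT LGG and 8018 in WT IgG libraries and is also an interferon-induced gene. Of 12 macrophage and monocyte markers 1 was higher and 10 lower, with sums of 51828 to 57171.5 in WT LGG against 253923 to 273260 in WT IgG libraries. NK cell sums were 55082 to 63397 in WT LGG against 37380 to 39595 in WT IgG libraries, with 4 of 8 measured markers higher and 2 lower, and of 12 T cell markers 3 were higher and 3 lower. None of these markers was at 0 in a WT group. The part of these markers in the changes of the 7 genes was not tested.

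**Figure D2:**
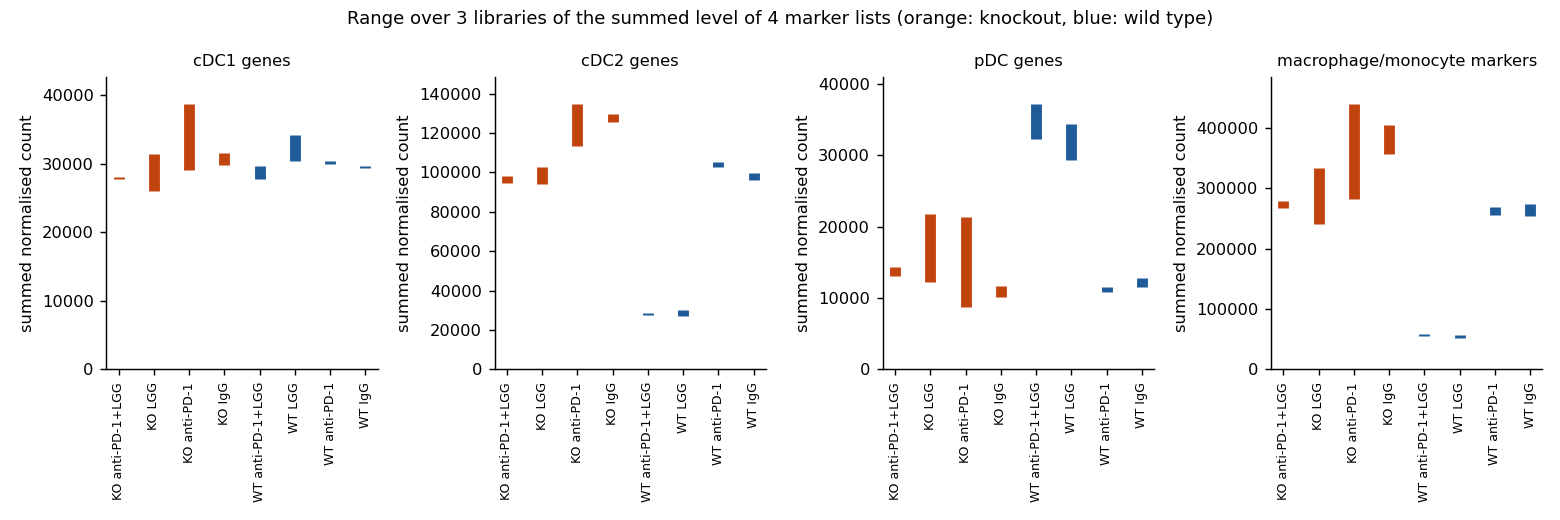
Range over 3 libraries of the summed normalised count of 4 marker lists (y axis) in the 8 groups (x axis), with knockout groups in orange and WT groups in blue. The cDC2 and macrophage sums are lowest in the 2 WT groups with LGG, where the pDC sum is highest, and the cDC1 sum lies between 26044 and 38799 in all 8 groups.

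In Myd88 knockout mice, LGG against IgG gave calls for all 7 genes, 6 higher and 1 lower, with smaller folds for the genes that had changed most in WT mice. Among all genes tested, 18.1% were called higher and 14.2% lower. The median log2 change was 0.56 over the 7 genes and 0 over all genes.

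Irf7 again had the largest change, with 1363, 1836 and 1248 normalised counts in knockout LGG, against 245.1, 273.5 and 236.2 in knockout IgG libraries. That is 5.80-fold, a log2 change of 2.54 ± 0.17 (adjusted p = 6.77e-10, limma). All 3 knockout LGG libraries stayed far below the 9212 of the lowest WT LGG library. Irf8 had 4184, 4319 and 4126 counts in knockout LGG, against 3488.5, 3571 and 3359 in knockout IgG libraries. The groups did not overlap, yet the fold was only 1.21, a log2 change of 0.28 ± 0.05 (adjusted p = 0.000362, limma). Irf4 had 6752.5, 6272 and 7589 counts in knockout LGG, against 4258.5, 4043 and 4341 in knockout IgG libraries (log2 change 0.70 ± 0.07, adjusted p = 2.12e-07, limma).

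Irf9 had 2681, 2701.5 and 2585 normalised counts in knockout LGG, against 1762, 1880 and 1748 in knockout IgG libraries, a log2 change of 0.56 ± 0.06 (adjusted p = 2.77e-07, limma). Irf1 had 3622, 4217 and 3220 in knockout LGG, against 2528, 2459 and 2194 in knockout IgG libraries, a log2 change of 0.62 ± 0.09 (adjusted p = 2.1e-05, limma). Both genes had groups that did not overlap, and the highest values of Irf1 and Irf7 in knockout LGG came from replicate 2, which stood apart. Irf2 had 1726, 1456 and 1736 counts in knockout LGG, against 2219, 2030 and 2192.5 in knockout IgG libraries (log2 change -0.39 ± 0.12, adjusted p = 0.017, limma). Irf5, not called in WT mice, had 12942, 13257 and 12271.5 counts in knockout LGG, against 10879, 11224 and 10207 in knockout IgG libraries. Its change of 0.25 ± 0.06 (adjusted p = 0.00445, limma) placed replicates 1 and 2, but not replicate 3, within the range of the 12 WT libraries, 12569 to 13399.

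Without the 3 libraries that stood apart, all 7 genes were still called in this comparison, with log2 changes of 2.37 for Irf7, 0.52 for Irf1 and 0.26 for Irf8. That fit called 7830 of 12749 genes tested, against 4108 in the reported fit, so a call in it is common. In a fit of the 6 libraries compared alone, which called 2677 of all genes tested, Irf5 (adjusted p = 0.107, limma) and Irf8 (adjusted p = 0.0526, limma) were not called. Irf2 lost its call when knockout IgG replicate 1 (adjusted p = 0.0596, limma), knockout IgG replicate 3 (0.0506) or knockout LGG replicate 2 (0.0704) was left out.

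Lymphocyte markers rose with LGG in the knockout mice. All 12 T cell markers, all 6 measured B cell markers and all 8 measured NK cell markers were called higher, and T cell sums were 13124 to 16399 in knockout LGG against 6896 to 7603 in knockout IgG libraries. NK cell sums were 11629 to 17725 in knockout LGG against 3401 to 3940 in knockout IgG libraries, and B cell sums 772.7 to 934 against 483.8 to 600.4. Of the macrophage and monocyte markers 6 were lower and 0 higher, with sums of 240403 to 333799 in knockout LGG against 356160 to 404799 in knockout IgG libraries. Of the pDC genes 6 were higher and 2 lower, with sums of 12245 to 21730 in knockout LGG against 10158 to 11663 in knockout IgG libraries. Of the cDC1 genes 4 were higher and 2 lower, and of the cDC2 genes 2 higher and 3 lower. The part of these markers in the results was not tested.

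The difference between the genotypes in the effect of LGG was tested directly, as knockout effect minus WT effect. It was below 0 for 5 of the 7 genes and above 0 for none, while 15.4% of all genes tested were called below 0 and 19.5% above. Irf8 differed most: its LGG fold was 1.21 in knockout and 6.63 in WT mice, a log2 difference of -2.45 ± 0.07 (adjusted p = 9.52e-15, limma). Irf7 followed with -1.20 ± 0.24 (adjusted p = 0.000516, limma), since its fold was 5.80 in knockout and 13.3 in WT mice. Irf1 (-0.55 ± 0.13, adjusted p = 0.00189, limma), Irf4 (-0.50 ± 0.10, adjusted p = 0.000599, limma) and Irf9 (-0.50 ± 0.08, adjusted p = 7.31e-05, limma) had smaller LGG effects in knockout mice too. The same 5 genes were called without the 3 libraries that stood apart, with log2 differences of -2.47 for Irf8, -1.36 for Irf7, -0.65 for Irf1, -0.43 for Irf4 and -0.51 for Irf9. Irf5 was called in that fit too, as given below. For this difference the fit called 8010 of 12749 genes tested, against 4449 in the reported fit, so a call in it is common.

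Irf2 had nearly equal effects, -0.39 in knockout and -0.37 in WT mice, and their log2 difference was -0.02 ± 0.17 (adjusted p = 0.94, limma). For Irf5 the difference of 0.23 ± 0.09 missed the threshold (adjusted p = 0.0594, limma). It passed without the 3 libraries that stood apart (0.20, adjusted p = 0.00947, limma), without knockout LGG replicate 3 (0.26, adjusted p = 0.0434) and with DESeq2 on whole reads (0.22, adjusted p = 0.0081).

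**Figure D3:**
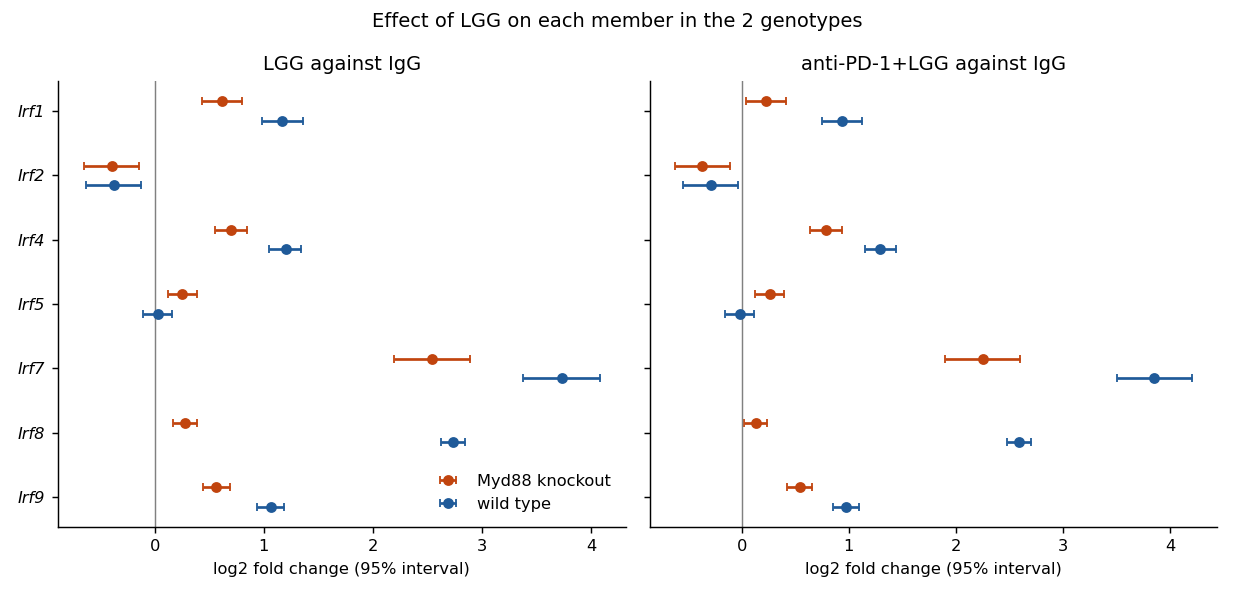
Log2 fold change (x axis) of each gene with LGG alone (left) and with anti-PD-1 plus LGG (right), both against IgG, in Myd88 knockout (orange) and WT (blue) mice; points are limma estimates from 3 libraries a group and bars 95% intervals. Irf8 lies at 0.28 in knockout and 2.73 in WT mice with LGG, and Irf2 at -0.39 and -0.37.

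The combination of anti-PD-1 and LGG was set against the same IgG libraries as LGG alone, and Irf7, Irf4 and Irf9 were higher with it in both genotypes. In knockout mice 4 genes were higher and 1 lower with the combination, where 19.1% and 14.4% of all genes were called higher and lower. In WT mice 5 were higher and 1 lower, against 26.7% and 28.3% of all genes. Irf8 had 3912, 3683 and 3777 normalised counts in knockout combination libraries, against 3488.5, 3571 and 3359 in knockout IgG libraries. That change of 0.13 ± 0.05 was not called (adjusted p = 0.0731, limma), though the groups did not overlap and DESeq2 on whole reads called it (adjusted p = 0.00242). In WT mice Irf8 had 32320, 31680 and 31085 counts with the combination, against 5139, 5237 and 5407.5 with IgG (log2 change 2.59 ± 0.05, adjusted p = 1.55e-18, limma).

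Irf7 had 1196, 1141 and 1260 normalised counts in knockout combination libraries, against 245.1, 273.5 and 236.2 in knockout IgG libraries, a 4.76-fold difference (log2 2.25 ± 0.17, adjusted p = 3.79e-09, limma). In WT mice it had 12025, 10780 and 9939 counts with the combination, against 708.6, 736.3 and 815.6 with IgG, a 14.45-fold difference (log2 3.85 ± 0.17, adjusted p = 1.8e-13, limma). Irf4 and Irf9 had smaller log2 changes than Irf7, of 0.79 ± 0.07 and 0.54 ± 0.06 in knockout mice, and 1.29 ± 0.07 and 0.97 ± 0.06 in WT mice. Irf5 rose by 0.26 ± 0.06 in knockout mice (adjusted p = 0.00371, limma), while its log2 change in WT mice was -0.02 ± 0.06 (adjusted p = 0.792, limma).

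Irf1 had 2755.5, 2772 and 2855 normalised counts in knockout combination libraries, against 2528, 2459 and 2194 in knockout IgG libraries. The groups did not overlap, but the change of 0.23 ± 0.09 was not called (adjusted p = 0.0603, limma). It was called in a fit of the 6 libraries alone (adjusted p = 0.00703), without the 3 libraries that stood apart (0.00313) and by DESeq2 (0.0365). WT combination libraries had 9656, 9518 and 9233 counts of Irf1, against 5034, 4830 and 4990 in WT IgG libraries (log2 change 0.94 ± 0.09, adjusted p = 2.65e-08, limma). Irf2 was lower with the combination by -0.37 ± 0.12 in knockout mice (adjusted p = 0.0247, limma) and -0.29 ± 0.12 in WT mice (adjusted p = 0.048, limma). The WT call of Irf2 was lost when any 1 of the 6 libraries was left out (adjusted p of 0.0696 to 0.127, limma), with TMM scaling (0.0747) and with edgeR on whole reads (0.0674). The knockout call of Irf2 was lost without IgG replicate 1 (0.079) or 3 (0.0676), or without combination replicate 1 (0.0559) or 3 (0.0798).

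The combination effect also differed between the genotypes. Knockout effect minus WT effect was below 0 for 5 genes and above 0 for 1, against 14% and 19.8% of all genes tested. The log2 difference was -2.46 ± 0.07 for Irf8 (adjusted p = 8.68e-15, limma), -1.60 ± 0.24 for Irf7 and -0.71 ± 0.13 for Irf1. It was -0.50 ± 0.10 for Irf4 and -0.43 ± 0.08 for Irf9. Irf5 was the gene above 0, at 0.28 ± 0.09 (adjusted p = 0.0206, limma), a call lost without WT IgG replicate 1 (0.26, adjusted p = 0.0521) or knockout IgG replicate 3 (0.24, adjusted p = 0.0628). The knockout and WT effects of LGG alone and of the combination share their IgG libraries, so they are not separate evidence.

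Set against anti-PD-1 alone, the combination gave 5 genes higher and 0 lower in knockout mice, where 19.7% of all genes were higher and 17% lower. In WT mice it gave 5 higher and 1 lower, where 27.7% were higher and 29.1% lower. Log2 changes in knockout mice were 1.85 ± 0.17 for Irf7, 0.80 ± 0.07 for Irf4, 0.62 ± 0.06 for Irf9, 0.33 ± 0.09 for Irf1 and 0.26 ± 0.06 for Irf5. In WT mice they were 4.15 ± 0.17 for Irf7, 2.77 ± 0.05 for Irf8, 1.26 ± 0.07 for Irf4, 1.12 ± 0.09 for Irf1, 0.94 ± 0.06 for Irf9 and -0.39 ± 0.12 for Irf2. The knockout comparison uses both anti-PD-1 libraries that stood apart. In a fit of its 6 libraries alone 3 genes were called, with Irf1 (adjusted p = 0.159, limma) and Irf5 (0.274) lost. Over the whole table that fit called 1245 of 12749 genes tested, against 4673 in the reported fit. Without the 3 libraries, which leaves 1 knockout anti-PD-1 library assumed to vary like the other groups, Irf1 was not called (0.18, adjusted p = 0.087), while Irf2 (-0.30, adjusted p = 0.000904) and Irf8 (0.17, adjusted p = 0.0136) were. Irf2 was also called without knockout anti-PD-1 replicate 3 alone (-0.36, adjusted p = 0.000815).

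Adding anti-PD-1 to LGG gave no call among the 7 genes. In knockout mice 0 of 7 were called between the combination and LGG alone, as were 0.275% of all genes, and in WT mice 0 of 7, as were 0.0628% of all genes. An unadjusted p below 0.05 was reached by 2 genes in each genotype, Irf1 and Irf8. Of all 12749 genes tested, 879 in knockout and 827 in WT mice reached it (limma). Irf1 had a mean of 2794 ± 53.4 normalised counts in the knockout combination and 3686.5 ± 501.6 in knockout LGG (SD, n = 3 each), a log2 change of -0.39 ± 0.09 (adjusted p = 0.0696, limma). In WT mice it averaged 9469 ± 216.1 with the combination and 11155 ± 742.3 with LGG, a log2 change of -0.23 ± 0.09 (adjusted p = 0.655, limma). Irf8 was at -0.15 ± 0.05 in knockout and -0.14 ± 0.05 in WT mice. DESeq2 called 2 genes in knockout mice, Irf1 and Irf8, and Irf8 in WT mice, and edgeR called 0 in both. Without the 3 libraries that stood apart, Irf1 was called in knockout mice (-0.29, adjusted p = 0.0116, limma), and Irf1 (-0.23, adjusted p = 0.0243) and Irf8 (-0.14, adjusted p = 0.04) in WT mice. Irf1 in knockout mice was also called without LGG replicate 3 alone (-0.48, adjusted p = 0.034, limma). Across the 7 genes and both genotypes, the 95% intervals of this comparison ran from -0.64 to 0.47 on the log2 scale.

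Anti-PD-1 alone, set against IgG, likewise gave 0 of 7 calls in knockout mice, where 1.8% of all genes were called, and 0 of 7 in WT mice, where 0.0314% were. Irf7 had 331.8, 237.5 and 458.5 normalised counts in knockout anti-PD-1, against 245.1, 273.5 and 236.2 in knockout IgG libraries. The groups overlapped, since anti-PD-1 replicate 2 lay inside the IgG range, and the log2 change of 0.40 ± 0.17 was not called (adjusted p = 0.259, limma). Without that replicate it was 0.63 (adjusted p = 0.00958, limma) and Irf2 was called as well (-0.36, adjusted p = 0.0237). Leaving out all 3 libraries that stood apart leaves 1 knockout anti-PD-1 library, whose spread is taken from the other groups, and in that fit Irf7 was called (0.40, adjusted p = 0.0249).

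In WT mice Irf8 had 4772, 4644 and 4552 counts with anti-PD-1, against 5139, 5237 and 5407.5 with IgG. These groups did not overlap, but the change of -0.18 ± 0.05 was not called (adjusted p = 0.296, limma). Irf8 was called by DESeq2 on whole reads (adjusted p = 0.000606), in a fit of the 6 libraries alone (0.0217) and without the 3 libraries (0.012). Irf7 had 611, 609.9 and 613.2 counts with anti-PD-1, against 708.6, 736.3 and 815.6 with IgG (log2 change -0.30 ± 0.17, adjusted p = 0.725, limma). It was called in the fit of 6 libraries (0.0171) and without the 3 libraries (0.0198), and the 6-library fit called Irf1 too (-0.18, adjusted p = 0.03). An unadjusted p below 0.05 was reached by 1 member in each genotype, Irf7 in knockout and Irf8 in WT mice. Of all 12749 genes tested, 1992 in knockout and 1028 in WT mice reached it (limma), so reaching it is common. With edgeR 0 members were called in both genotypes. DESeq2 called 0 in knockout and 1 in WT mice.

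**Figure D4:**
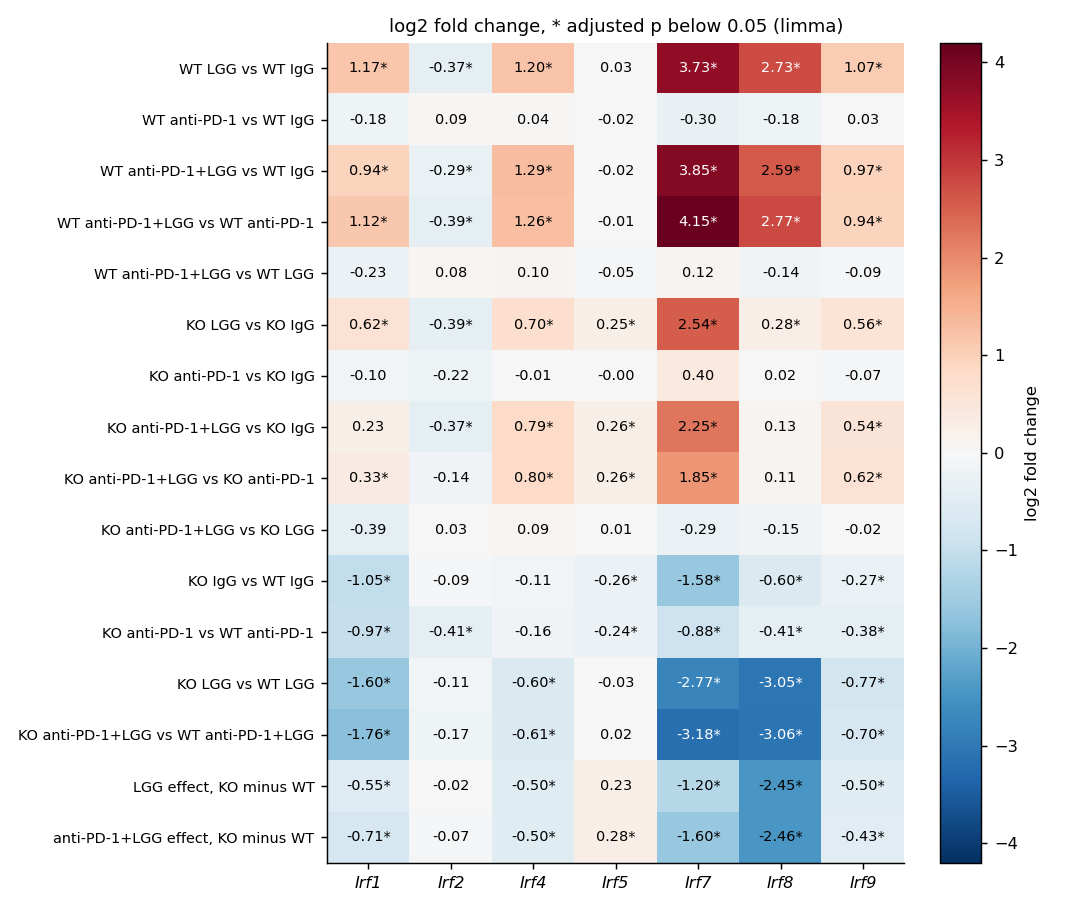
Log2 fold change of the 7 genes (columns) in all 16 comparisons (rows), from limma on 3 libraries a group; red is higher and blue lower in the group named first, and an asterisk marks an adjusted p below 0.05. Irf7 spans -3.18 to 4.15, whereas Irf5 stays between -0.26 and 0.28, and the 4 rows of anti-PD-1 against IgG and of the combination against LGG hold no asterisk.

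Between genotypes, every called difference within a treatment was lower in the knockout. With IgG, 5 of the 7 genes were lower and 0 higher, where 20% of all genes were lower and 19.1% higher. Irf7 had 245.1, 273.5 and 236.2 normalised counts in knockout IgG, against 708.6, 736.3 and 815.6 in WT IgG libraries (log2 difference -1.58 ± 0.17, adjusted p = 3.1e-07, limma). Irf1 had 2528, 2459 and 2194 counts in knockout IgG, against 5034, 4830 and 4990 in WT IgG libraries, a log2 difference of -1.05 ± 0.09 (adjusted p = 1.43e-08, limma). Irf8 differed by -0.60 ± 0.05 (adjusted p = 2.12e-08, limma), Irf9 by -0.27 ± 0.06 (adjusted p = 0.000956) and Irf5 by -0.26 ± 0.06 (adjusted p = 0.00287). Irf4, at -0.11 ± 0.07, and Irf2, at -0.09 ± 0.12, were not called. Even with IgG alone, then, Irf1 was at 0.483 and Irf7 at 0.335 of the WT level.

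Markers of cell types differed between these IgG groups as well. T cell sums were 6896 to 7603 in knockout IgG against 16445 to 17229 in WT IgG libraries, with 10 of 12 markers lower and 1 higher. NK cell sums were 3401 to 3940 in knockout IgG against 37380 to 39595 in WT IgG libraries, with 8 of 8 measured markers lower. Neutrophil sums were 518.4 to 533.9 in knockout IgG against 1645 to 1690.5 in WT IgG libraries, with 7 of 9 measured markers lower. B cell sums were 483.8 to 600.4 in knockout IgG against 695.9 to 724.6 in WT IgG libraries, with 5 of 6 measured markers lower. Macrophage sums were 356160 to 404799 in knockout IgG against 253923 to 273260 in WT IgG libraries, with 4 of 12 markers lower and 2 higher; Lyz2 made most of the sum, at 317607 in knockout IgG and 174710 in WT IgG libraries. Of the cDC1 genes 6 were higher and 3 lower in knockout IgG, and of the cDC2 genes 5 were higher and 5 lower. Of the pDC genes 6 were lower and 1 higher in knockout IgG, and Ly6d, one of them, was at 0 in all 3 knockout IgG libraries. Their part in the genotype differences was not tested.

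With LGG, 5 genes were lower and 0 higher in the knockout, against 27% and 28.2% of all genes lower and higher. With the combination it was again 5 lower and 0 higher, against 27.7% and 30.4%. The Irf8 level was 8.29-fold higher in WT LGG than in knockout LGG libraries (log2 difference -3.05 ± 0.05, adjusted p = 4.53e-19, limma) and 8.36-fold higher in the WT combination (-3.06 ± 0.05, adjusted p = 2.82e-19). For Irf7 the log2 difference was -2.77 ± 0.17 with LGG and -3.18 ± 0.17 with the combination. Irf1 differed by -1.60 ± 0.09 with LGG and -1.76 ± 0.09 with the combination, Irf9 by -0.77 ± 0.06 and -0.70 ± 0.06, and Irf4 by -0.60 ± 0.07 and -0.61 ± 0.07. The LGG differences without the 3 libraries that stood apart were -3.07 for Irf8, -2.94 for Irf7, -1.71 for Irf1, -0.78 for Irf9 and -0.54 for Irf4, all called. For knockout against WT with LGG that fit called 9090 of 12749 genes tested, against 7033 in the reported fit. A call in it is therefore common. Irf2 (-0.11 ± 0.12 and -0.17 ± 0.12) and Irf5 (-0.03 ± 0.06 and 0.02 ± 0.06) were not called in either treatment. Irf2 with the combination was called in a fit of the 6 libraries alone (adjusted p = 0.00612, limma) and without the 3 libraries that stood apart (0.00401). Irf5 was called lower in the knockout with IgG and not with LGG or the combination, and the tests of those differences gave adjusted p = 0.0594 for LGG and 0.0206 for the combination (limma).

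With anti-PD-1 alone 6 genes were lower and 0 higher in the knockout, where 21.7% of all genes were lower and 24.1% higher. The log2 differences were -0.97 ± 0.09 for Irf1, -0.88 ± 0.17 for Irf7, -0.41 ± 0.05 for Irf8, -0.41 ± 0.12 for Irf2, -0.38 ± 0.06 for Irf9 and -0.24 ± 0.06 for Irf5. The call of Irf2 rests on knockout replicate 3, whose 1359 normalised counts lay below 2049 and 2226 in the other replicates. Without it the Irf2 difference was -0.19 (adjusted p = 0.0638, limma). In a fit of these 6 libraries alone, 1 gene, Irf1, kept its call. Calls were fewer over the whole table too, at 796 of 12749 genes tested, against 5831 in the reported fit. Irf4 was not called, at -0.16 ± 0.07 (adjusted p = 0.068, limma). It was called with TMM scaling (-0.19, adjusted p = 0.0344), by edgeR (0.0365) and DESeq2 (0.0378) on whole reads, and without knockout replicate 2 (-0.20, adjusted p = 0.0244). Without the 3 libraries that stood apart, the log2 differences of the 7 genes ran from -0.88 for Irf7 to -0.17 for Irf5. That fit leaves 1 knockout anti-PD-1 library, assumed to vary like the other groups. Its calls are therefore not listed here, though they enter the totals of repeats given below.

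The order of levels over the 8 groups differed by gene. Irf8 was highest in WT LGG, then the WT combination, WT IgG, WT anti-PD-1, knockout LGG, the knockout combination, knockout anti-PD-1 and knockout IgG, and only the last 2 of these neighbours overlapped in their library ranges. Irf1 kept WT LGG, the WT combination, WT IgG and WT anti-PD-1 on top, and the lowest WT anti-PD-1 library, at 4108, lay under the highest knockout LGG library, at 4217. Irf7, Irf4 and Irf9 had a different order: both knockout groups with LGG stood above both WT groups without it. In Irf7, for example, knockout LGG averaged 1482.5 ± 311.7 and the knockout combination 1199 ± 59.4 normalised counts, above WT IgG at 753.5 ± 55.5 and WT anti-PD-1 at 611.4 ± 1.7 (SD, n = 3 each). For Irf2 the groups WT anti-PD-1, WT IgG, knockout IgG, knockout anti-PD-1 and the WT combination overlapped from neighbour to neighbour, then came WT LGG, and the knockout combination and knockout LGG, which overlapped, were lowest. For Irf5 the first 6 groups formed a chain of overlapping neighbours, and knockout anti-PD-1 and knockout IgG, which overlapped each other, lay below it.

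Levels can be compared between genes only per length, here as normalised counts per kb of the principal transcript. Irf5 was the most abundant member in all 4 knockout groups and in the WT groups without LGG, with 4806 ± 231 counts per kb in knockout IgG and 5754 ± 125.2 in WT IgG libraries. In both WT groups with LGG it was Irf8, at 12259 ± 122.2 counts per kb in WT LGG. Irf8 made up 11.5% of the summed level of the 7 genes in knockout LGG and 12.5% in knockout IgG, but 36.8% in WT LGG and 14.15% in WT IgG libraries. That sum was 12879 ± 470.5 per kb in knockout LGG and 9752 ± 321.8 in knockout IgG, and 33306 ± 889 in WT LGG and 13063 ± 163.3 in WT IgG libraries. Irf7 was the least abundant member in knockout IgG (131.3 per kb) and WT IgG (393.3 per kb), and stood at 5231 per kb in WT LGG, after Irf8 and Irf5. With length taken over all annotated exons, Irf5 and Irf8 kept these first places, but the order of the other members changed. The lead of Irf8 was then small, at 4947 per kb in WT LGG against 4521 for Irf5. In the WT combination these levels were 4493 and 4370. The shares and sums above use the principal transcript and depend on that choice of length.

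**Figure D5:**
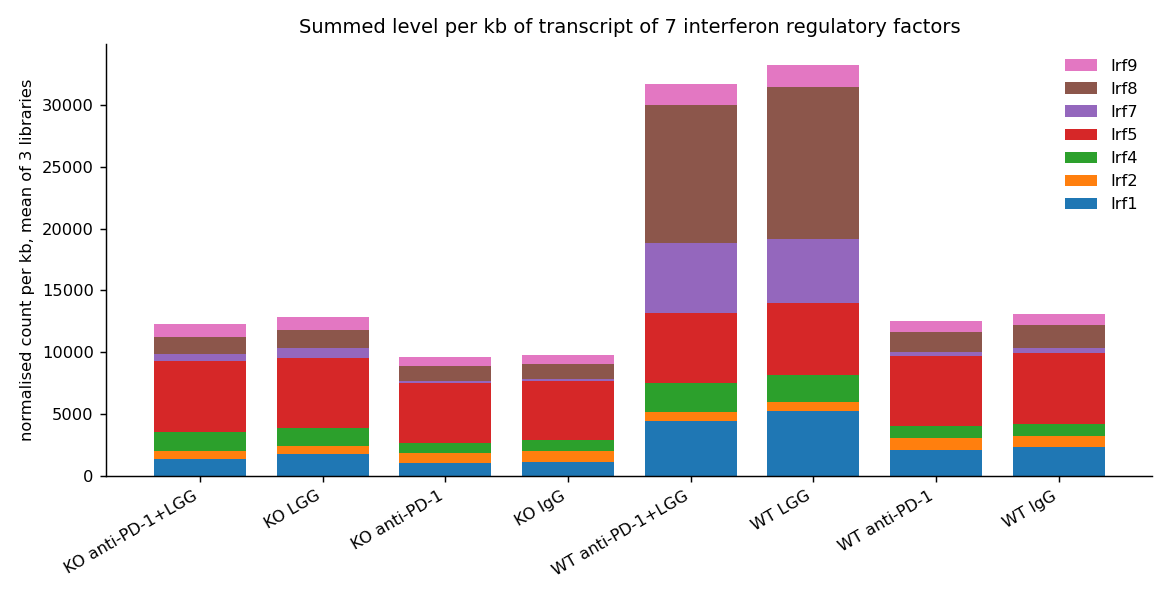
Mean level of the 7 genes in normalised counts per kb of principal transcript (y axis), stacked, in each group of 3 libraries (x axis). The WT LGG and WT combination columns reach 33306 and 31740, of which Irf8 makes 36.8% and 35.1%; the other 6 columns lie between 9595 and 13063.

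The balance of the 2 fate regulators went in different directions in the genotypes. By library ranges, the ratio of Irf8 to Irf4 was lower with LGG in knockout and higher in WT mice. Per kb it was 0.91 to 1.15 in knockout LGG against 1.295 to 1.48 in knockout IgG libraries, and 5.46 to 5.81 in WT LGG against 1.87 to 2.05 in WT IgG libraries. The ranges did not overlap in either genotype, with a mean ratio of 1.03 in knockout LGG, 1.38 in knockout IgG, 5.61 in WT LGG and 1.94 in WT IgG. The ratio of Irf1 to Irf2 per kb averaged 2.67 in knockout LGG and 1.305 in knockout IgG, and 7.38 in WT LGG and 2.53 in WT IgG libraries. It was thus higher with LGG in both genotypes, without overlap of the library ranges. The size of both ratios depends on the length used. Over all annotated exons Irf8 to Irf4 averaged 0.429 in knockout LGG, 0.574 in knockout IgG, 2.33 in WT LGG and 0.806 in WT IgG libraries, and Irf4 was then the higher of the pair in knockout LGG, knockout IgG and WT IgG. Irf1 to Irf2 then averaged 4.25 in knockout LGG, 2.08 in knockout IgG, 11.7 in WT LGG and 4.03 in WT IgG libraries.

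Genes that act around the family were read from 3 lists of pathway genes. Of 10 receptor and Jak-Stat genes, 4 were higher and 1 lower with LGG in knockout mice (median log2 change 0.34), and 7 were higher and 1 lower in WT mice (median 0.48). Stat2, a partner of Irf9 in ISGF3, averaged 3683 normalised counts in knockout LGG, 1776 in knockout IgG, 8029 in WT LGG and 2340 in WT IgG libraries. Stat2 rose in both genotypes, by 1.05 ± 0.11 in knockout and 1.78 ± 0.11 in WT mice, and the difference of these effects was -0.73 ± 0.15 (adjusted p = 0.000683, limma). Stat3, which carries interleukin-6 and interleukin-10 signals, rose by 0.31 ± 0.10 in knockout and 1.13 ± 0.10 in WT mice, and the kinase gene Jak2 by 0.45 ± 0.16 and 1.07 ± 0.16. Ifngr1, a chain of the interferon gamma receptor, was the 1 lower gene in both genotypes, at -0.77 ± 0.07 in knockout and -0.21 ± 0.07 in WT mice (difference -0.57 ± 0.09, adjusted p = 8.44e-05, limma). Over the list the log2 difference, knockout effect minus WT effect, was called below 0 for 4 genes (Stat2, Stat3, Jak2 and Ifngr1) and above 0 for 0. The median of the differences was -0.46, against 0.03 over all genes.

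Of 13 kinases and adaptors upstream of the family, 6 were higher and 3 lower with LGG in knockout mice, and 6 were higher and 2 lower in WT mice, with medians of 0.12 and 0.14. Ikbkb, the kinase that activates Irf5 and NF-kB, rose in WT mice by 0.79 ± 0.06, while its knockout change was 0.06 ± 0.06 (adjusted p = 0.494, limma), and the effects differed by -0.73 ± 0.08 (adjusted p = 9.52e-07). Ticam1, the adaptor of Toll-like receptors 3 and 4 that works beside Myd88, rose by 0.44 ± 0.08 in knockout and 0.86 ± 0.08 in WT mice. Traf6, the ubiquitin ligase below Myd88, rose by 0.77 ± 0.13 in knockout and 1.17 ± 0.13 in WT mice, a difference that was not called (-0.39 ± 0.18, adjusted p = 0.108, limma). Mavs, the adaptor of the cytosolic RNA sensors, fell by 0.33 on the log2 scale in knockout and by 1.05 in WT mice. Ikbke, which phosphorylates Irf7, was higher in knockout LGG by 0.66 ± 0.11, and its WT change was -0.07 ± 0.11 (adjusted p = 0.606, limma).

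Of 15 binding partners and regulators, 6 were higher and 1 lower with LGG in knockout mice (median 0.18), and 10 were higher and 3 lower in WT mice (median 1). Spi1 encodes PU.1, which recruits Irf4 and Irf8 to DNA. It averaged 15144 normalised counts in knockout LGG and 14856 in knockout IgG, but 6730.5 in WT LGG and 14141.5 in WT IgG libraries. Its WT change was -1.07 ± 0.15, its knockout change 0.01 ± 0.15 (adjusted p = 0.985, limma), and these differed by 1.08 ± 0.21 (adjusted p = 0.000384). Socs3, an inhibitor of Jak-Stat signals, rose by 0.55 ± 0.14 in knockout and 2.17 ± 0.14 in WT mice, and Usp18, an interferon-induced brake on the type I receptor, by 1.34 ± 0.07 and 1.80 ± 0.07. Rel, an NF-kB subunit, rose by 0.94 ± 0.15 in knockout and 1.67 ± 0.15 in WT mice. Trim21, a ubiquitin ligase that acts on several members of the family, rose in WT mice by 1.00 ± 0.12 and had a change of 0.19 ± 0.12 in knockout mice (adjusted p = 0.245, limma). Irf2bp2, a corepressor that binds Irf2, was lower by -0.18 ± 0.07 in knockout and -0.82 ± 0.07 in WT mice.

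The genes whose levels followed each member most closely over the 24 libraries are given as a description, since all libraries share the same groups and the WT libraries with LGG carry much of the variance. By Pearson correlation of log2(normalised count + 1), Irf8 was followed by Il10ra (0.997), the interleukin-10 receptor, Cd86 (0.996), a costimulatory ligand of T cells, and Pkib (0.992). Cd86 averaged 1657.5 normalised counts in knockout LGG, 986.8 in knockout IgG, 17282 in WT LGG and 1614 in WT IgG libraries. Irf7 was followed by Gpr132 (0.996), Gadd45b (0.995) and Fpr2 (0.994), and Irf9 by Cxcl10 (0.99), an interferon-induced chemokine, Zhx2 (0.989) and Gadd45b (0.989). Gadd45b, a stress-response gene near to both, averaged 1657 counts in knockout LGG, 406.2 in knockout IgG, 11306 in WT LGG and 840.8 in WT IgG libraries. Irf1 was followed by Igtp (0.997), an interferon gamma-induced GTPase, Penk (0.992) and Epsti1 (0.989). Igtp averaged 1058 counts in knockout LGG, 530.3 in knockout IgG, 4718 in WT LGG and 1510.5 in WT IgG libraries. Irf4 was followed by St3gal1 (0.992), Acpp (0.992) and Serpinb2 (0.989), Irf2 by Elovl5 (0.954), Coro2a (0.95) and Smc3 (0.944), and Irf5, which varied least, by F13a1 (0.881), Smpd5 (0.875) and Eef2 (0.87).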

How the data were processed

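Normalised counts of messenger RNA in 24 libraries were used as deposited. The table holds a signal, normalised read counts, in which the authors divided each gene's count by a factor for the library. The tools named in the submitters' processing notes are STAR 2.4.0, HTSeq 0.6.1 and DESeq2 (no version), with build mm10. Dividing a library by its smallest step turned 100% of values into whole reads within 0.001; this is least certain for knockout LGG replicate 3, whose step of 1.0048 is close to 1.

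From these values log2(value + 1) was tested with limma 3.58.1 in R 4.3.3, with 1 mean per group over 24 libraries and moderated variances (trend, robust), for 12749 of 12767 genes with a mean of at least 10. Two-sided tests were corrected (Benjamini and Hochberg) within each of 16 comparisons and called below 0.05. The SE is that of the model, and the SD is over 3 libraries.

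Named genes were the 7 members, Myd88, up to 4 genes of each pathway list with the smallest p for LGG in wild type and for its difference between genotypes, and the 3 genes most correlated with each member. A gene that this rule names is not reported here. The members and lists were chosen with earlier results of these data known. Zbtb46, Itgax, Xcr1, Clec9a, Bst2, Ly6d and Lyz2 were named from the marker lists after their values were seen. Gene positions and lengths come from GENCODE on the same build, matched for 12765 genes, and promoter windows from RefSeq. Alternatives were a pseudocount of 8, no filter, TMM, only the libraries compared, a replicate block, each of edgeR 4.0.16 and DESeq2 1.42.0 fitted to the whole reads, each library left out, and the 3 libraries that stand apart left out.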

Additional observations from a re-analysis of the deposited data

Results flagged for a closer look

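The effect of LGG differed between the genotypes, by a test of the difference itself (knockout effect minus wild-type effect, limma, adjusted p below 0.05 over all genes), for Irf8 (log2 difference -2.45), Irf7 (-1.20), Irf1 (-0.55), Irf4 (-0.50) and Irf9 (-0.50). The effect of anti-PD-1 with LGG differed in the same way for Irf8 (-2.46), Irf7 (-1.60), Irf1 (-0.71), Irf4 (-0.50) and Irf9 (-0.43), and in the other direction for Irf5 (0.28). Both effects are set against the same IgG libraries.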

How the results depend on the processing

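Of 1652 repeats of 112 gene results, 1586 stayed on the same side of the threshold, 29 lost a call and 37 gained one. Among repeats called in either fit, 0 turned round. Direction was not compared where neither fit gave a call. Counts of called genes out of 7 moved by over 1.5 times as follows. With only the libraries compared, the count was 3 for WT anti-PD-1 against IgG (0 in the reported fit), 3 for the knockout combination against anti-PD-1 (5) and 1 for knockout against WT with anti-PD-1 (6). DESeq2 called 1 for WT anti-PD-1 against IgG (0), 1 for the WT combination against LGG (0) and 2 for the knockout combination against LGG (0). Without the 3 libraries that stand apart, the counts were 2, 2, and 1 for those comparisons and 1 for knockout anti-PD-1 against IgG (0). Leaving out each library gave 0 to 2 for knockout anti-PD-1 against IgG, with 2 called without anti-PD-1 replicate 2, and 0 to 1 for the knockout combination against LGG, with 1 called without LGG replicate 3. These fits hold fewer libraries or another estimate of the spread; the cause of each move was not tested.

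Same-numbered libraries did not deviate together throughout: in no comparison was every pair's correlation over 0.1, so the numbers are not taken to pair the libraries. Some pairs did: with knockout LGG against IgG the correlations ran from -0.103 to 0.516, with a mean of 0.257. The mean was 0.241 for knockout against WT with LGG and -0.231 for knockout anti-PD-1 against IgG. With the replicate block, Irf2 in the WT combination against IgG lost its call (-0.29, adjusted p = 0.0577, limma), and Irf1 in the knockout combination against IgG (0.23, adjusted p = 0.0451) and Irf5 in the LGG difference between genotypes (0.23, adjusted p = 0.0474) gained one.

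Counts over all genes moved most in small comparisons. WT anti-PD-1 against IgG had 4 called, and 1760 with only the libraries compared, 1079 without the 3 libraries, 207 with DESeq2, 9 with edgeR, 7 with a pseudocount of 8 and 0 with the block. The WT combination against LGG had 8, and 145, 1095 and 81 in the first 3 of these fits, 16 with TMM and 5 with the block. Knockout anti-PD-1 against IgG had 229, and 0, 1140 and 602, and the knockout combination against LGG 35, and 0, 1437 and 201, with 55 by edgeR. Without the 3 libraries the count was 7194 (4312) for the combination difference between genotypes, 8010 (4449) for the LGG difference, 7299 (4267) and 7830 (4108) for the knockout combination and LGG against IgG, and 8139 (4977) for knockout against WT with IgG. With only the libraries compared these were 7388, not moved, 7369, 2677 and 7936, with 1245 (4673) for the knockout combination against anti-PD-1 and 796 (5831) for knockout against WT with anti-PD-1. Leaving out each library moved the count in 6 of the 16 comparisons: 0 for WT anti-PD-1 against IgG, 0 to 4 for the WT combination against LGG, 11 to 20 where the knockout combination against LGG moved, 74 to 4581 for knockout anti-PD-1 against IgG (4581 without anti-PD-1 replicate 2), 3307 to 3873 for knockout against WT with anti-PD-1, and 7544 for the knockout combination against anti-PD-1 without anti-PD-1 replicate 2.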
